A study of Mus musculus with 9 samples.

Results

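The genes described here are 9 basic leucine zipper (bZIP) transcription factors: the Fos family (Fos, Fosb, Fosl1 and Fosl2), the Jun family (Jun, Junb and Jund), the related factor Atf3 and the small Maf protein Maff. They were picked by gene symbol, and all 9 were found among the 56805 genes of the table. The set was drawn up with the values of these same libraries in view, so the differences between genotypes of its members are given as a description, with no p-value.

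RNA came from the tibialis anterior (TA) muscle of the left leg, a fast-twitch muscle of the shin. The mice were 13 months old and male, with 1 library from each of 3 mice per genotype: Svil-Mut (replicates 1, 2 and 4), Svil-KO (replicates 1, 3 and 4) and wild type (WT; replicates 1, 3 and 4). Svil encodes supervillin, which links actin and myosin to the cell membrane and in muscle is found at costameres. The labels do not say how either Svil allele was made, which exons it changes, what strain background the mice share, or whether mice were littermates. Svil itself averaged 4379 ± 381 normalized counts in Svil-Mut, 6934 ± 407 in Svil-KO and 8822 ± 497 in WT (n = 3 each, ± SD). A count over the whole gene does not check which part of the transcript is left.

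AP-1 is a dimer of a Fos and a Jun protein, or of a pair of Jun proteins, held together by a leucine zipper. Fos proteins do not form stable dimers with each other and need a Jun partner to bind DNA. Fos, Fosb and Junb are immediate early genes, which means that their transcription starts within minutes of a stimulus without new protein synthesis. In skeletal muscle they are known to respond to contraction, injury and stress. Atf3 is a stress-induced bZIP factor that can pair with Jun proteins and acts as a repressor or an activator, depending on its partner. Maff has a DNA-binding zipper but no activation domain, and pairs with other bZIP factors such as Nfe2l2 and Fos.

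The sequence before the transcription start is shown for the 5 members with a cAMP response element (CRE) core in a window. CRE letters before Fos are a textbook entry point of calcium and cAMP signalling. Jun is shown beside these 5 because its level differed least in both comparisons of Svil-Mut. Fosl2 and Jund hold no core and are not shown, though Fosl2 differed by 2.13 on the log2 scale between Svil-Mut and WT. Of the 3 Maff windows only the second is shown, and the third holds the core too. The windows of the 5 were thus picked by the core, so they do not tell whether it goes with the differences. Each run is the 250 bases upstream of the start, read 5′ to 3′ on the strand of the gene, from RefSeq on GRCm38.p6. Capitals mark the CRE core TGACG on either strand, the full CRE (the core followed by TCA) and the TATA box TATAAA.
Fos (chr12:85473640-85473889, plus strand): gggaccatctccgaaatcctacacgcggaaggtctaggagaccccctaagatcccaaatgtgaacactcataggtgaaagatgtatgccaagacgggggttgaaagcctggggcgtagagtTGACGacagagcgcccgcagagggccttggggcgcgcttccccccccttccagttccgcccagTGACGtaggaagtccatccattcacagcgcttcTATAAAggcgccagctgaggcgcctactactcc
Fosb (chr7:19310046-19310295, minus strand): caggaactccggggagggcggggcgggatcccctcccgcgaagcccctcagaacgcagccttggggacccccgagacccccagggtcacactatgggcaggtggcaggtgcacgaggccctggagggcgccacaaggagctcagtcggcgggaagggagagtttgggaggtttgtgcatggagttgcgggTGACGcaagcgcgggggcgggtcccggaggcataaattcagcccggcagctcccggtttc
Jun (chr4:95052223-95052472, minus strand): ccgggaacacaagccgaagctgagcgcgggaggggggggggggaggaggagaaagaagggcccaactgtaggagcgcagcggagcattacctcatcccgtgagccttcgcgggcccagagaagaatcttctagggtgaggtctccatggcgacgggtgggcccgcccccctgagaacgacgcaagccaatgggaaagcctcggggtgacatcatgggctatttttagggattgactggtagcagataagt
Junb (chr8:84978749-84978998, minus strand): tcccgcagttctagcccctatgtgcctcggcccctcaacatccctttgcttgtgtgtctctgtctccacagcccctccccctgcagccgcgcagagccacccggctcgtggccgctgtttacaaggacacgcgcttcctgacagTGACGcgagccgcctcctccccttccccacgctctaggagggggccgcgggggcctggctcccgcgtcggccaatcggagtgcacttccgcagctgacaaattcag
Atf3 (chr1:191183334-191183583, minus strand): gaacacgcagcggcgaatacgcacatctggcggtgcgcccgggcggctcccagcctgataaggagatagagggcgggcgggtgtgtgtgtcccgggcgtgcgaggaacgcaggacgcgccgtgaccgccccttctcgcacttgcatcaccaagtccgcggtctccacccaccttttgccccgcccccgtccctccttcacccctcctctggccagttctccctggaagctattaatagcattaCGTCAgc
Maff (chr15:79347270-79347519, plus strand): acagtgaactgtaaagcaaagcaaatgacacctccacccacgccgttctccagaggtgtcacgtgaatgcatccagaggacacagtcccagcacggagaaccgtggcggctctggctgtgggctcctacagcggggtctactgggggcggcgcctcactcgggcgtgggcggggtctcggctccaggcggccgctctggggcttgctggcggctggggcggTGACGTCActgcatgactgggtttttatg

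RefSeq upstream windows were found for 8 of the 9 members, 1 each and 3 for Maff, and Fosl1 had no entry. The CRE core stood in the windows of 5 members, Fos, Fosb, Junb, Atf3 and Maff, and in none of those of Fosl2, Jun and Jund. Among all 32817 RefSeq windows of the same length, 17.7% held the core on either strand. In Fos the core stood at bases -129 to -125 and at -66 to -62, counted back from -1 next to the start, with the TATA box at -33 to -28. Fos was the only member with that TATA box, which 12.4% of all windows held. The full CRE stood only in the second Maff window, at -29 to -22, where it contains the core on both strands, and 1.55% of all windows held it. The AP-1 site TGANTCA stood in no member's window, against 6.75% of all windows, and the CArG box that serum response factor binds stood in none, against 1.47%. The GC box GGGCGG, which Sp1 can bind, was in windows of 6 members, with 32.7% of all windows as background. These matches describe letters within 250 bases and say nothing of binding. Only exact letters were searched, so near matches were not counted. Bases further upstream were not searched, so a CArG box there would have been missed. For Jund the RefSeq start lies upstream of the GENCODE gene. For Atf3 it lies 34706 bases inside the gene, for Fosl2 671 and for the second Maff window 899. All 250 bases of the Fosl2 window lie in annotated exons. Each window thus belongs to the RefSeq start alone, and absence of the core is not comparable between members.

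In Svil-Mut muscle 7 of the 8 members that could be tested were higher than in WT in every library, and the remaining one, Jun, overlapped. Values are normalized counts, which are read counts divided by a library size factor by the authors. Fold changes are limma differences of log2(normalized count + 1) with their standard error (SE), from 1 fit to the 15279 genes in which at least 3 libraries reached 10. Fosb, among the 7, reached 10 in only 1 library outside Svil-Mut, so it was tested through the group where it was high. At an adjusted p under 0.05, 2 members, Fos and Atf3, were among the calls in Svil-Mut against WT, where 0.0393% of all tested genes were called in either direction and 0.0262% were called higher. Genes whose Svil-Mut libraries all lay above all WT libraries made up 7.13% of those tested, and in 6.81% all lay below. In Svil-KO against WT 0 members were called, as were 0% of all genes. Of the members, 1 lay above WT in all Svil-KO libraries (Fosl2; 5.2% of all genes did) and 1 lay below (Atf3; 5.45% of all genes did). In Svil-Mut against Svil-KO 2 members were called, again Fos and Atf3, beside 0.0458% of all genes (0.0327% higher). In 6 members every Svil-Mut library lay above every Svil-KO library and in 0 below, beside 7.66% and 7.55% of all genes. The members were chosen on these contrasts, so nothing is read from these counts, and the comparisons share libraries. DESeq2 on the recovered reads called 6 members in Svil-Mut against WT, beside 1.13% of all genes, 0 in Svil-KO against WT, beside 0.0262%, and 7 in Svil-Mut against Svil-KO, beside 1.54%. Here and below, DESeq2 shares are taken over the genes that it gave an adjusted p. Those were 15264 in each comparison with WT and 13784 in Svil-Mut against Svil-KO. Svil-Mut replicate 2 and Svil-KO replicate 1 stood apart from the rest of their genotype in several members, and values without them are given where they move a result. In whole muscle, fewer cells of a type and less RNA per cell cannot be told apart.

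**Figure D1:**
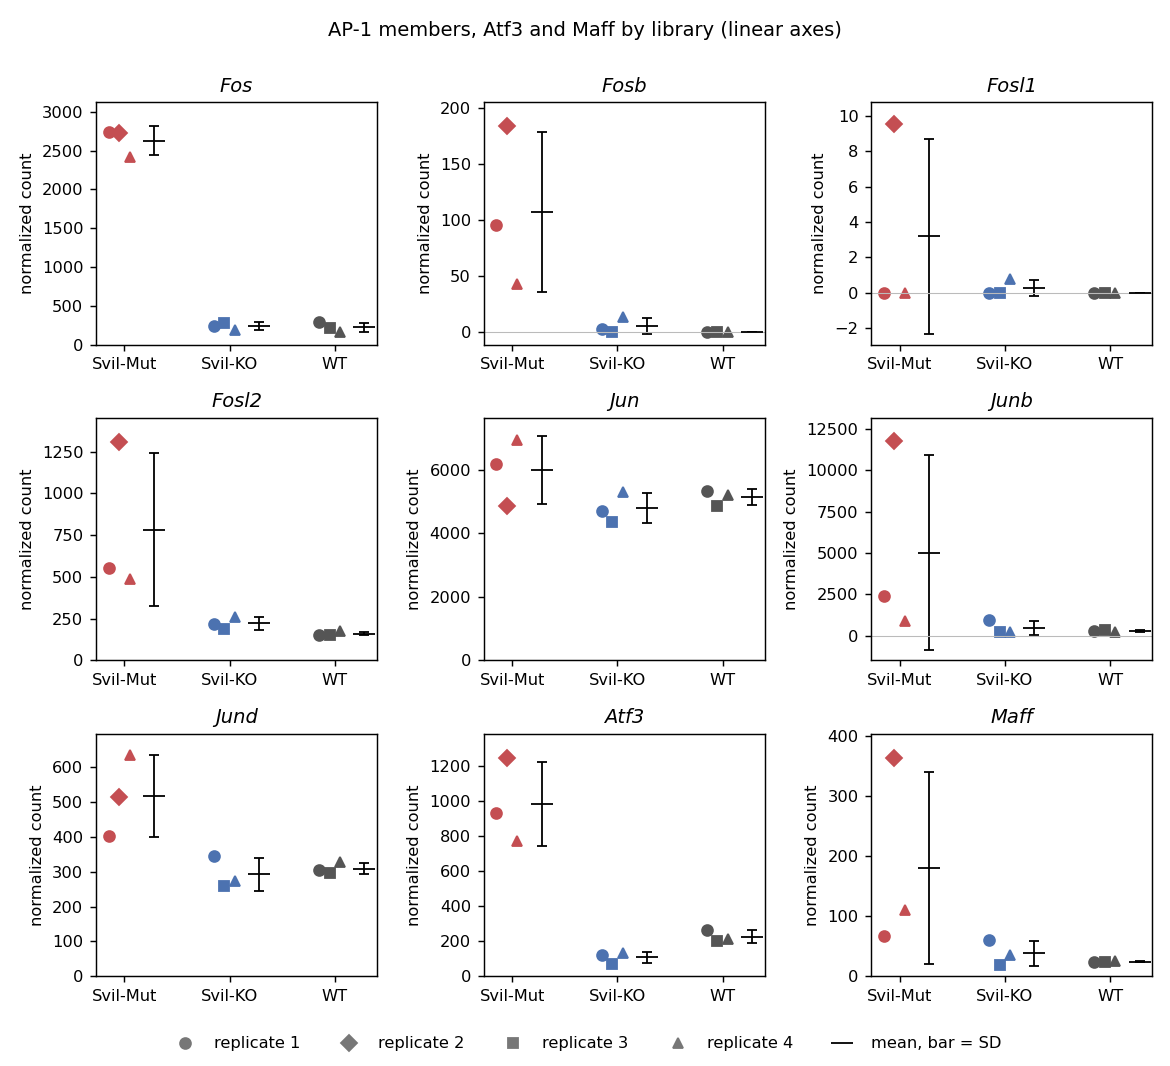
Normalized counts of the 9 members in each library, on a linear axis per gene, for Svil-Mut, Svil-KO and WT. Points are libraries, with the replicate shown by the marker shape, and the dash and bar beside them are the mean and SD of 3 libraries. Fos points of Svil-Mut lie close together at 2418.4 to 2739.8, while those of Junb spread over 922.5 to 11759.

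Fos, the founding member and the main partner of Jun in AP-1, had 2739.8, 2732 and 2418 normalized counts in Svil-Mut replicates 1, 2 and 4. It had 245, 284 and 185 in Svil-KO replicates 1, 3 and 4, and 287, 214 and 167 in WT replicates 1, 3 and 4. The gene lies on GRCm38 chromosome 12, 85473890 to 85477273, plus strand, with 4 exonic blocks (ENSMUSG00000021250.13, protein coding). All 3 Svil-Mut libraries were high and near each other, and the Svil-KO and WT libraries overlapped. The mean was 2630.1 ± 183 in Svil-Mut, 238 ± 50.04 in Svil-KO and 222 ± 60.2 in WT (mean ± SD, n = 3 each), so the SD was 6.97% of the mean in Svil-Mut. The ratio of the Svil-Mut mean to the WT mean was 11.8. On the log2 scale Fos differed by 3.59 ± 0.21 (SE) between Svil-Mut and WT, by 0.11 ± 0.21 between Svil-KO and WT, and by 3.48 ± 0.21 between Svil-Mut and Svil-KO. With each library left out in turn, the Svil-Mut difference from WT ran between 3.40 and 3.79, while that of Svil-KO lay between -0.08 and 0.31 and thus on both sides of 0.

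Fosb, a close relative of Fos whose truncated form is known to persist in stimulated cells, was listed at 0 in all 3 WT libraries. It lies on GRCm38 chromosome 7, 19302696 to 19310051, minus strand, with 2 exonic blocks (ENSMUSG00000003545.3, protein coding). Svil-Mut replicates 1, 2 and 4 had 95.7, 184 and 42.6 normalized counts, and Svil-KO replicates 1, 3 and 4 had 2.20, 0 and 13.6. Reads were thus seen in every Svil-Mut library, in 2 of the 3 Svil-KO libraries and in none of the WT libraries. A count of 0 still allows up to 3 reads per library, which corresponds to 3.12 normalized counts in WT. Against that floor the Svil-Mut mean of 108 ± 71.6 (SD, n = 3) was at least 34.4-fold higher. Fosb passed the filter on low values through its 3 Svil-Mut libraries, which alone suffice. Outside Svil-Mut only Svil-KO replicate 4 reached the limit. Its fitted log2 difference of 6.52 ± 1.03 (SE) between Svil-Mut and WT depends on the added count and is no bound, and was 6.02 without Svil-Mut replicate 2.

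Fosl1 (Fra-1), a Fos relative without an activation domain, could not be tested, because no library reached a normalized count of 10. It lies on GRCm38 chromosome 19, 5447547 to 5455946, plus strand, with 4 exonic blocks (ENSMUSG00000024912.6, protein coding). It had 10 reads in Svil-Mut replicate 2, 1 read in Svil-KO replicate 4 and 0 reads in the other 7 libraries, so it was seen in 2 of the 9 libraries. Its exons share 57.2% of their bases (1163 bases) with Ccdc85b on the opposite strand, and the library kit does not mark strand, so reads of the pair cannot be told apart there. Ccdc85b averaged 1446 normalized counts in Svil-Mut, 1488 in Svil-KO and 1444 in WT.

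Fosl2 (Fra-2), the other Fos relative without an activation domain, had 553, 1311 and 487 normalized counts in Svil-Mut replicates 1, 2 and 4, against 221, 185 and 258 in Svil-KO replicates 1, 3 and 4. WT replicates 1, 3 and 4 had 155, 154 and 174. Fosl2 lies on GRCm38 chromosome 5, 32135801 to 32157842, plus strand, with 4 exonic blocks (ENSMUSG00000029135.10, protein coding). The genotypes stood in the order Svil-Mut, Svil-KO, WT with no overlap at either step, and Svil-Mut replicate 2 was the highest library. Means were 784 ± 458 in Svil-Mut, 221 ± 36.1 in Svil-KO and 161 ± 11.4 in WT (mean ± SD, n = 3 each). On the log2 scale Fosl2 differed by 2.13 ± 0.32 (SE) between Svil-Mut and WT, and by 0.45 ± 0.32 between Svil-KO and WT. Without Svil-Mut replicate 2 the first of these differences was 1.68.

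Jun, the member with the highest level per kb of exon in WT and the partner that Fos proteins need, differed least in both comparisons of Svil-Mut. It lies on GRCm38 chromosome 4, 95049034 to 95052222, minus strand, with 1 exonic block (ENSMUSG00000052684.4, protein coding). Its normalized counts were 6199, 4853 and 6949.5 in Svil-Mut replicates 1, 2 and 4, and 4706, 4364 and 5298 in Svil-KO replicates 1, 3 and 4. WT replicates 1, 3 and 4 had 5345, 4873 and 5221, so that all 3 genotypes overlapped, and Svil-Mut replicate 2 lay below every WT library. The log2 difference was 0.21 ± 0.13 (SE) between Svil-Mut and WT and -0.11 ± 0.13 between Svil-KO and WT. The antisense gene Junos overlaps 7.28% of the Jun exon bases.

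Junb, a Jun relative that is itself an immediate early gene and in muscle is known for a role in maintaining fibre size, had 2389.6, 11759 and 923 normalized counts in Svil-Mut replicates 1, 2 and 4. Svil-KO replicates 1, 3 and 4 had 933, 248 and 214, and WT replicates 1, 3 and 4 had 270.2, 372 and 228. Junb lies on GRCm38 chromosome 8, 84974484 to 84978718, minus strand, with 3 exonic blocks (ENSMUSG00000052837.6, protein coding). Svil-Mut replicate 2 stood far above the rest, and Svil-KO replicate 1 lay just above Svil-Mut replicate 4, so these 2 genotypes overlapped while Svil-Mut and WT did not. The highest library was 12.7 times the lowest within Svil-Mut, 4.37 times within Svil-KO and 1.63 times within WT. Means were 5024 ± 5879 in Svil-Mut, 465 ± 406 in Svil-KO and 290.3 ± 74.1 in WT (mean ± SD, n = 3 each), so the SD exceeded the mean in Svil-Mut. The log2 difference was 3.38 ± 0.79 (SE) between Svil-Mut and WT, and 2.38 without Svil-Mut replicate 2. Between Svil-KO and WT it was 0.37 ± 0.79, and -0.30 without Svil-KO replicate 1. Prdx2, on the opposite strand, overlaps 7.52% of the Junb exon bases, and averaged 4404 normalized counts in Svil-Mut, 4931 in Svil-KO and 5118 in WT.

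Jund, the Jun relative that cells at rest express and that is known to restrain growth, had 402, 514 and 637 normalized counts in Svil-Mut replicates 1, 2 and 4. Svil-KO replicates 1, 3 and 4 had 347, 258 and 273, and WT replicates 1, 3 and 4 had 305, 295 and 327. Jund lies on GRCm38 chromosome 8, 70698949 to 70700616, plus strand, with 1 exonic block (ENSMUSG00000071076.6, protein coding). Every Svil-Mut library was above every other library, and Svil-KO and WT overlapped. The mean was 518 ± 117 in Svil-Mut, 292 ± 47.6 in Svil-KO and 309 ± 16.2 in WT (mean ± SD, n = 3 each), and the log2 difference between Svil-Mut and WT was 0.72 ± 0.19 (SE). The annotated antisense gene Gm11175, which covers 52.6% of the Jund exon bases, was listed at 0 in all libraries. The library kit does not mark strand, and how reads over shared bases were counted is not given. The 0 thus does not show that Jund kept its reads there.

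Atf3 was the only member whose Svil-KO libraries all lay below WT. It lies on GRCm38 chromosome 1, 191170296 to 191218039, minus strand, with 5 exonic blocks (ENSMUSG00000026628.13, protein coding). It had 933, 1246 and 771 normalized counts in Svil-Mut replicates 1, 2 and 4. It had 121, 72.4 and 132 in Svil-KO replicates 1, 3 and 4, and 267, 201 and 211 in WT replicates 1, 3 and 4. The order was Svil-Mut, WT, Svil-KO, with no overlap at either step. Means were 983 ± 241 in Svil-Mut, 108 ± 31.6 in Svil-KO and 226 ± 35.4 in WT (mean ± SD, n = 3 each). The ratio of the Svil-Mut mean to the WT mean was 4.34, and that of the Svil-KO mean to the WT mean was 0.479. On the log2 scale the difference was 2.10 ± 0.26 (SE) between Svil-Mut and WT, and -1.09 ± 0.26 between Svil-KO and WT, which was not called. Between Svil-Mut and Svil-KO it was 3.19 ± 0.26. The call of Atf3 in Svil-Mut against WT was lost without a variance trend, and when any of Svil-Mut replicate 2, WT replicate 3 and WT replicate 4 was left out (log2 difference 1.91 without Svil-Mut replicate 2). That call was also lost with the replicate number as a block in the fit, where the log2 difference was 1.74. Number 2 occurs only in Svil-Mut, so the block takes up that library, and this loss is not separate from leaving it out. With each library left out in turn, the Svil-KO difference from WT stayed between -1.25 and -0.83.

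Maff had 66.2, 363 and 110 normalized counts in Svil-Mut replicates 1, 2 and 4, against 59.4, 18.3 and 34.3 in Svil-KO replicates 1, 3 and 4. WT replicates 1, 3 and 4 had 23.0, 23.3 and 25.5. Maff lies on GRCm38 chromosome 15, 79346621 to 79359076, plus strand, with 6 exonic blocks (ENSMUSG00000042622.14, protein coding). Every Svil-Mut library was above every other library, though replicate 1 lay only just above Svil-KO replicate 1, and the WT libraries lay close together. Means were 180 ± 160 in Svil-Mut, 37.4 ± 20.7 in Svil-KO and 23.9 ± 1.36 in WT (mean ± SD, n = 3 each). The log2 difference between Svil-Mut and WT was 2.49 ± 0.61 (SE), and 1.79 without Svil-Mut replicate 2. Between Svil-KO and WT it was 0.47 ± 0.61, and 0.07 without Svil-KO replicate 1.

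**Figure D2:**
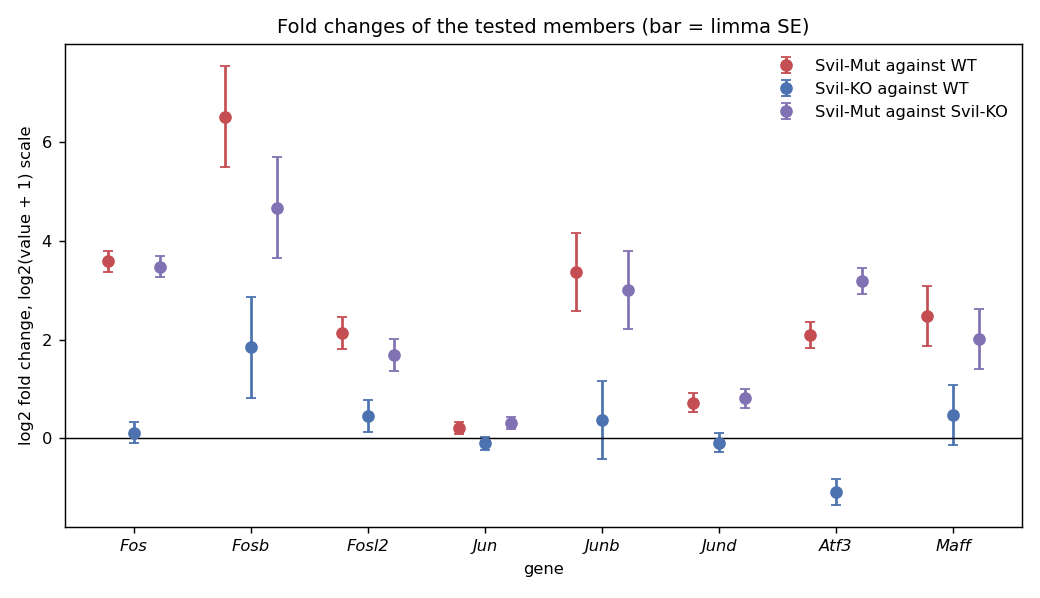
Log2 fold changes of the 8 tested members on the log2(normalized count + 1) scale, for Svil-Mut against WT, Svil-KO against WT and Svil-Mut against Svil-KO. Points are limma estimates and bars their standard errors. Fos has the narrowest bars among the strongly differing members, Junb, Fosb and Maff wide ones, and Fosb depends on the added count because WT is at 0.

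The members differed in how much they varied among the Svil-Mut mice. The highest Svil-Mut library was 1.13 times the lowest for Fos and 1.62 times for Atf3. It was 2.69 times the lowest for Fosl2, 4.33 times for Fosb, 5.48 times for Maff and 12.7 times for Junb. Svil-Mut replicate 2 was the highest library for Fosb, Fosl2, Junb, Atf3 and Maff, and the lowest of the 3 Svil-Mut libraries for Jun. Within Svil-KO, replicate 1 was the highest for Junb, Jund and Maff. Across the 9 libraries, the mean absolute difference between centred log2 values ran from 0.26 for Jun and Jund, which varied little, to 2.61 for Fosb and Jun. It was 0.41 for Fosl2 and Maff, 0.68 for Fos and Atf3, 0.82 for Fos and Junb and 1.46 for Fos and Jun. These are descriptions over 9 libraries that share their genotype groups.

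**Figure D3:**
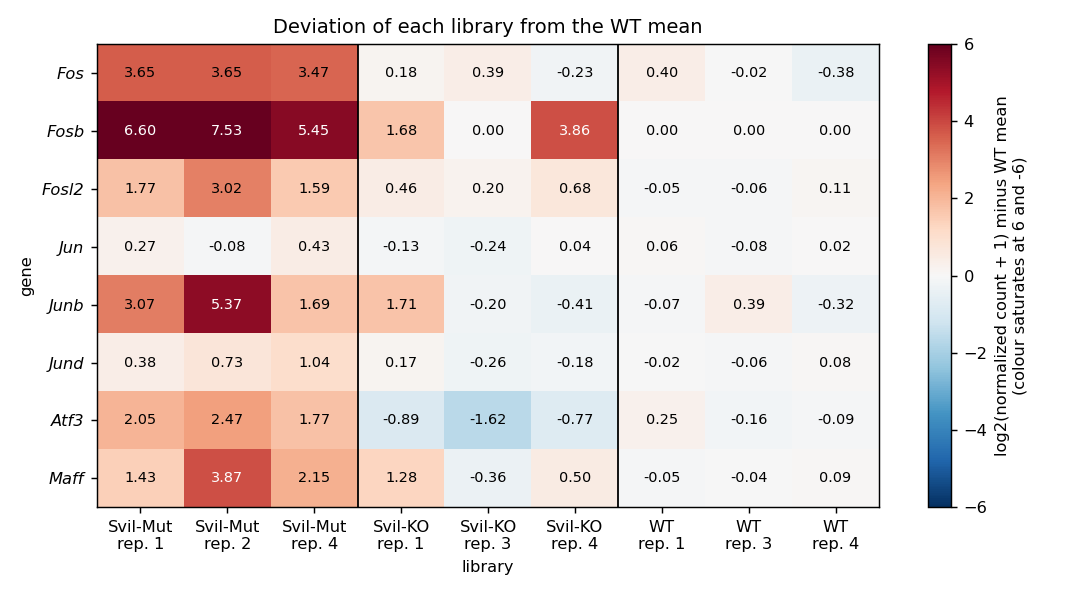
Deviation of each library from the WT mean, as log2(normalized count + 1), for the 8 tested members (rows) in the 9 libraries (columns). Red is above and blue below the WT mean. The Svil-Mut columns are red for all members except Jun, which lies between -0.08 and 0.43 there. Junb is at 5.37 in Svil-Mut replicate 2, and Atf3 is at -1.62 to -0.77 in the Svil-KO columns.

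Levels of the Fos and Jun members can be compared between genes once divided by exon length, here the union of GENCODE M21 exons. Bases shared with genes on the opposite strand, 52.6% of the Jund exon bases, were kept in that length. Jund levels per kb would be too low if reads there were not counted. On that scale, in normalized counts per kb, Jun averaged 1882 ± 333 in Svil-Mut, 1502 ± 148 in Svil-KO and 1614 ± 76.6 in WT (mean ± SD, n = 3 each). Fos averaged 1118 ± 78.0 per kb in Svil-Mut, 101 ± 21.3 in Svil-KO and 94.6 ± 25.6 in WT. Junb averaged 2183 ± 2555 per kb in Svil-Mut, 202 ± 176 in Svil-KO and 126 ± 32.2 in WT. In WT the per-kb order was Jun, Jund (185), Junb, Fos and Fosl2 (16.6). In Svil-Mut it was Junb, Jun, Fos, Jund (310.3), Fosl2 (81.0) and Fosb (17.2), though the Junb mean rests on replicate 2 and its libraries overlap those of Jun and Fos. The sum over the 7 Fos and Jun genes was 4047 to 8272 per kb in Svil-Mut, 1771 to 2216 in Svil-KO and 1974 to 2114 in WT.

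Jun made up a smaller share of that sum in Svil-Mut, at 43.6%, 18.4% and 53.8% in replicates 1, 2 and 4. It held 66.6%, 77.3% and 82.0% in Svil-KO replicates 1, 3 and 4, and 79.3%, 77.4% and 81.0% in WT replicates 1, 3 and 4. The Fos share was 26.1%, 14.0% and 25.4% in the Svil-Mut libraries, 4.71%, 6.83% and 3.88% in the Svil-KO libraries and 5.76%, 4.599% and 3.51% in the WT libraries. Junb held 23.3%, 61.8% and 9.91% in Svil-Mut, so that in replicate 2 it was the largest part. The ratio of Fos-family to Jun-family transcripts per kb was 0.192 to 0.384 in Svil-Mut, 0.0562 to 0.0859 in Svil-KO and 0.0461 to 0.0698 in WT. RNA shares do not give the make-up of the dimers, which depends on protein.

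**Figure D4:**
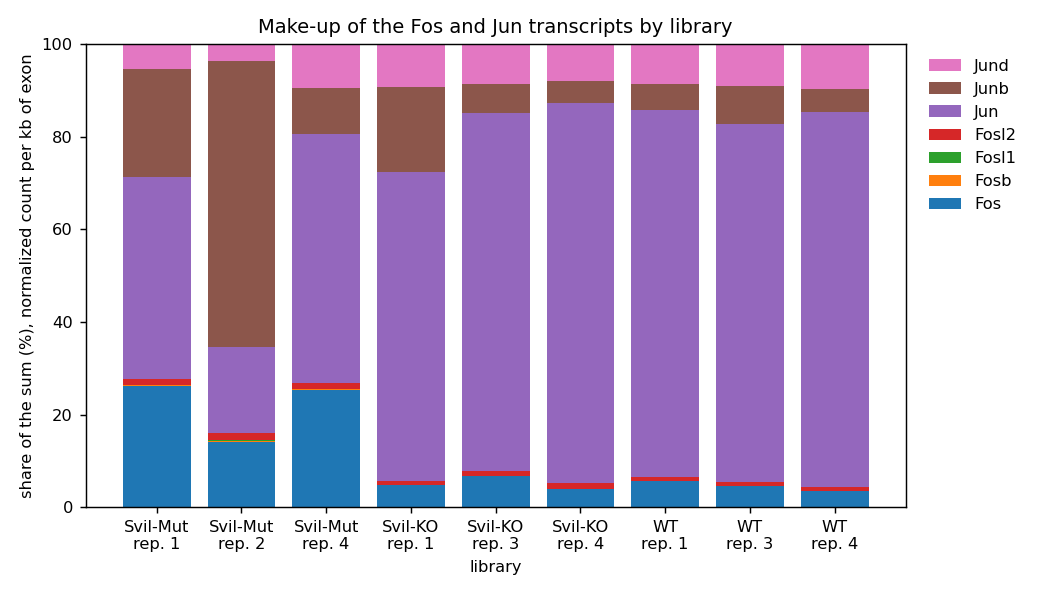
Share of each Fos and Jun gene in the sum of their normalized counts per kb of exon, in percent, for each of the 9 libraries. Colours are genes. Jun takes 66.6% to 82.0% of the Svil-KO and WT bars and 18.4% to 53.8% of the Svil-Mut bars.

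Among 10921 tested genes with a mean of at least 50 normalized counts, with the members themselves left out, those nearest to a member were found by the mean absolute difference of centred log2 values over the 9 libraries. Nearest to Fos were Apold1 (0.55), an endothelial early response gene, ENSMUSG00000121069 (0.60), listed without a symbol, Csrnp1 (0.63), Btg2 (0.67), an antiproliferative early gene, and Sik1 (0.68), a salt-inducible kinase. Apold1 had 1609, 1861 and 778 normalized counts in the Svil-Mut libraries, 298, 90.7 and 50.2 in the Svil-KO libraries and 117, 101 and 47.9 in the WT libraries. Btg2 averaged 6022 ± 3807 in Svil-Mut, 1285 ± 708 in Svil-KO and 1035 ± 140 in WT (mean ± SD, n = 3 each). In both genes every Svil-Mut library was above every other library. Of all genes, 7.13% lay above WT and 7.66% above Svil-KO in this way, and these genes were picked for their likeness to Fos.

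Nearest to Atf3 were Klf4 (0.39), a zinc finger factor, Dusp2 (0.50), a MAP kinase phosphatase, Rnd1 (0.51), Nr4a3 (0.55), a nuclear receptor, and Bcl6b (0.55). Klf4 had 602, 1074 and 831 normalized counts in Svil-Mut replicates 1, 2 and 4, 253, 112 and 163 in Svil-KO replicates 1, 3 and 4, and 211, 183 and 248 in WT replicates 1, 3 and 4. Dusp2 averaged 156 in Svil-Mut, 39.7 in Svil-KO and 58.2 in WT. In all 5 of these genes every Svil-Mut library was above every other library, beside 7.13% of all genes above WT and 7.66% above Svil-KO. In Klf4 the Svil-KO and WT libraries overlapped, unlike in Atf3. These genes were found because their values follow the member's, so no test is given.

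The genes around AP-1 and Atf3 were taken from 6 lists of textbook members. Of the 33 tested AP-1 target genes (of 45), limma called 0 in each of the 3 comparisons, and edgeR called 0. DESeq2 called 1 in Svil-Mut against WT, 0 in Svil-KO against WT and 3 in Svil-Mut against Svil-KO. Its shares over the genes given an adjusted p were 1.13%, 0.0262% and 1.54% in that order. At an unadjusted p under 0.05, 8 were higher and 1 lower in Svil-Mut against WT, where 10% of all genes passed that line in either direction. In Svil-KO against WT 0 were higher and 1 lower (4.11% of all genes passed), and in Svil-Mut against Svil-KO 9 were higher and 0 lower (10.2% of all genes passed). Their median log2 difference was 0.42 between Svil-Mut and WT and -0.01 between Svil-KO and WT, beside -0.0046 and 0.0031 for all tested genes. In 9 of the 33 every Svil-Mut library was above every WT library (7.13% of all genes) and in 0 below (6.81%).

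Thbs1, a matricellular protein, had 910.2, 1817 and 660.4 normalized counts in Svil-Mut replicates 1, 2 and 4, 633, 161 and 396 in Svil-KO replicates 1, 3 and 4, and 277, 253 and 396 in WT replicates 1, 3 and 4. Its log2 difference between Svil-Mut and WT was 1.76 ± 0.47 (SE; limma adjusted p = 0.292). Mt1, a metallothionein, had 1767, 13303 and 2707 in the Svil-Mut libraries, 1330, 899 and 1183 in the Svil-KO libraries and 955, 806 and 1322 in the WT libraries, with replicate 2 highest as for Junb (limma adjusted p = 0.325). Ccn2, a matrix-associated growth factor, averaged 1416 ± 349 in Svil-Mut, 958 ± 646 in Svil-KO and 611 ± 45.5 in WT (mean ± SD, n = 3 each; limma adjusted p = 0.330 for Svil-Mut against WT). Itga5, the fibronectin receptor subunit, averaged 457 ± 93.1 in Svil-Mut, 269 ± 26.7 in Svil-KO and 275 ± 11.3 in WT (mean ± SD, n = 3 each; limma adjusted p = 0.283 for Svil-Mut against WT).

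Of the 19 genes listed for AP-1 turnover and repression, limma and edgeR called 0 in each comparison. DESeq2 called 1 in Svil-Mut against WT (1.13% of all genes), 0 in Svil-KO against WT (0.0262%) and 1 in Svil-Mut against Svil-KO (1.54%). At an unadjusted p under 0.05, 1 passed in Svil-Mut against WT, as did 10% of all genes. Zfp36, which binds AU-rich elements and speeds the decay of early transcripts, had 1575, 2351 and 973 normalized counts in the Svil-Mut libraries, 1005, 475 and 467 in the Svil-KO libraries and 610.4, 483 and 549 in the WT libraries. Its log2 difference between Svil-Mut and WT was 1.49 ± 0.34 (SE; limma adjusted p = 0.240). The differences of Cop1 and Det1, of the ubiquitin ligase route that degrades Jun, were 0.16 ± 0.099 and 0.19 ± 0.13 (SE). That of Trib1 was 0.52 ± 0.26 (SE). In each of these genes Svil-Mut and WT overlapped.

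Of the 47 tested upstream kinases and activators (of 48), limma, edgeR and DESeq2 called 0 in each comparison. At an unadjusted p under 0.05, 5 were higher and 2 lower in Svil-Mut against WT, where 10% of all genes passed in either direction. Mef2c, a muscle transcription factor, averaged 24691 ± 708 in Svil-Mut, 27625 ± 1709 in Svil-KO and 28758 ± 399 in WT (mean ± SD, n = 3 each; limma adjusted p = 0.326 for Svil-Mut against WT). The log2 differences between Svil-Mut and WT were 0.19 ± 0.070 (SE) for Prkaca, a catalytic subunit of protein kinase A, and 0.30 ± 0.12 for Stat3, a cytokine-activated factor, neither called. The list's median was 0.03 between Svil-Mut and WT.

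Of the 33 tested other bZIP factors (of 38), limma and edgeR called 0 in each comparison. DESeq2 called 3 in Svil-Mut against WT (1.13% of all genes), 0 in Svil-KO against WT (0.0262%) and 2 in Svil-Mut against Svil-KO (1.54%). At an unadjusted p under 0.05, 8 were higher and 3 lower in Svil-Mut against WT, where 10% of all genes passed in either direction. The list's median was -0.0018. Mafk, a small Maf like Maff, averaged 1958 ± 417 in Svil-Mut, 1426 ± 92.4 in Svil-KO and 1086 ± 286 in WT (mean ± SD, n = 3 each; limma adjusted p = 0.266 for Svil-Mut against WT). Maf, a large Maf factor, averaged 2946 ± 537 in Svil-Mut, 1743 ± 469 in Svil-KO and 1854 ± 232 in WT. Atf7, a CRE-binding relative of Atf2, had a log2 difference of -0.43 ± 0.11 between Svil-Mut and WT (SE; limma adjusted p = 0.283).

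Of the 21 tested genes of the Atf4 and stress arm (of 22), which can induce Atf3, limma and edgeR called 0 in each comparison. DESeq2 called 2 in Svil-Mut against WT (1.13% of all genes), 0 in Svil-KO against WT (0.0262%) and 2 in Svil-Mut against Svil-KO (1.54%). At an unadjusted p under 0.05, 5 were higher and 0 lower in Svil-Mut against WT, where 10% of all genes passed in either direction. The list's median was 0.11. Ppp1r15a (GADD34), which restarts translation after stress, averaged 1612 ± 178 in Svil-Mut, 965 ± 45.5 in Svil-KO and 1014 ± 142 in WT (mean ± SD, n = 3 each; limma adjusted p = 0.145 for Svil-Mut against WT). Hspa5 (BiP), the main chaperone of the endoplasmic reticulum, averaged 13653 ± 1293 in Svil-Mut, 9747 ± 526 in Svil-KO and 10205 ± 287 in WT, and limma called neither comparison with WT. Atf4 averaged 6828 ± 737 in Svil-Mut, 5239.5 ± 302 in Svil-KO and 5427 ± 651 in WT. Ddit4 had 643, 3943 and 976 in the Svil-Mut libraries, 1091, 526 and 509 in the Svil-KO libraries and 302, 248 and 627 in the WT libraries, again with Svil-Mut replicate 2 highest.

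Of the 16 tested small Maf partners and NRF2 targets (of 18), limma and edgeR called 0 in each comparison. DESeq2 called 2 in Svil-Mut against WT (1.13% of all genes), 0 in Svil-KO against WT (0.0262%) and 1 in Svil-Mut against Svil-KO (1.54%). At an unadjusted p under 0.05, 3 were higher and 1 lower in Svil-Mut against WT, where 10% of all genes passed in either direction. The list's median was 0.11. Nfe2l2 (NRF2), the antioxidant factor that pairs with small Mafs, averaged 2717 ± 744 in Svil-Mut, 2118 ± 166 in Svil-KO and 1723 ± 80.6 in WT (mean ± SD, n = 3 each; limma adjusted p = 0.325 for Svil-Mut against WT). The log2 differences of Srxn1 and Nfe2l1 between Svil-Mut and WT were 0.39 ± 0.15 and -0.20 ± 0.084 (SE).

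**Figure D5:**
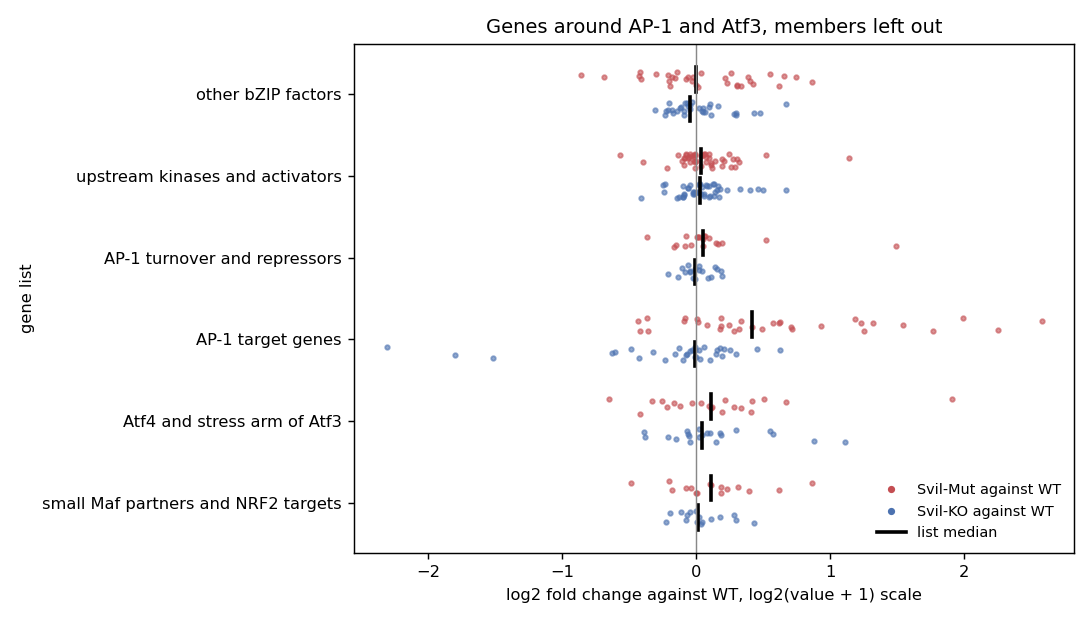
Log2 fold changes against WT of the tested genes of the 6 lists, with Svil-Mut in red and Svil-KO in blue. Each point is a gene and each black bar a list's median. The AP-1 target genes have a median of 0.42 for Svil-Mut and -0.01 for Svil-KO, and the other lists have medians of at most 0.11 for Svil-Mut.

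Several measures of the libraries differed between the genotypes or stood out in 1 library, and their part in the member differences was not tested. Libraries held between 36234428 and 48762188 reads. The share of counts in the top 10 genes was 27.6% to 28.8% in Svil-Mut, 24.4% to 26.7% in Svil-KO and 24.6% to 25.8% in WT. Mitochondrial transcripts took 3.93% to 5.03% in Svil-Mut, 5.87% to 6.56% in Svil-KO and 5.32% to 6.51% in WT. The 12 fast fibre markers, all measured, summed to 23.3% to 24.2% of counts in Svil-Mut, 20.5% to 22.1% in Svil-KO and 20.1% to 21.6% in WT, so the defining markers of fast muscle were present. Red blood cell markers (8) summed to 6605 to 49889 normalized counts in Svil-Mut, 2687 to 6292 in Svil-KO and 4480.5 to 8237 in WT. None of the 7 tested ones separated Svil-Mut from WT, while 5 were higher in all Svil-Mut than in all Svil-KO libraries, as were 7.66% of all genes. Neutrophil markers (8, with Ly6g at 0 in all libraries) summed to 28.5 to 466 in Svil-Mut, 23.1 to 50.2 in Svil-KO and 21.4 to 91.9 in WT. Macrophage markers (10, none at 0) summed to 1420.3 to 3888 in Svil-Mut, 1454 to 3222 in Svil-KO and 1420.3 to 2008 in WT. The highest sums of red blood cell, neutrophil and macrophage markers were all those of Svil-Mut replicate 4. That library was the lowest of its genotype for Fos, Fosb, Fosl2, Junb and Atf3, and the highest for Jun and Jund. Without that library the log2 differences between Svil-Mut and WT rose to 2.40 for Fosl2, 4.22 for Junb and 2.26 for Atf3. Those of Fos, Fosb and Maff rose too. The differences of the other tested members fell, from 0.21 to 0.09 for Jun and from 0.72 to 0.56 for Jund. Satellite cell markers (6, none at 0) summed to 2707 to 4022 in Svil-Mut, 2460.0 to 2726 in Svil-KO and 2409.6 to 2764 in WT, with 1 of the 6 higher and 4 lower in all Svil-Mut than in all WT libraries, as were 7.13% and 6.81% of all genes. The 10 endothelial markers summed to 11300 to 14244 in Svil-Mut, 10816 to 13137 in Svil-KO and 11021 to 13403 in WT. Sums of the smooth muscle and pericyte, T and B cell, fibro-adipogenic progenitor, adipocyte and Schwann cell lists overlapped between Svil-Mut and each other genotype, with none of their genes called. No gene of any marker list was called in any comparison.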

How the data were processed

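RNA was extracted with Trizol and RNeasy columns, per the labels' protocols. cDNA was primed with oligo(dT), amplified in full length by SMARTer v4 chemistry and tagmented with Nextera XT, which keeps no strand. Every library carries batch label 1. The submitters' processing notes name HISAT2, featureCounts, DESeq2 and mm10; which versions, settings and gene models were used is not given in the sources here. The deposited signal, a normalized count per gene, is a read count over a size factor of its library. Within 0.001, 100% of nonzero values were whole multiples of 1 read, so the reads could be recovered. No molecular identifiers are described, so the limit of 3 reads that a count of 0 allows covers counting error only.

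Values were log2-transformed after adding 1 and fitted with limma, with genotype as factor, all 9 libraries, a variance trend and Benjamini-Hochberg adjustment within each comparison, over the 15279 genes with 10 or more in 3 libraries. This scale understates changes of low genes. Its steps were tested on simulated data. Each library is a separate mouse; no 2 libraries of a genotype were alike within sampling noise.

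The members and all lists were chosen with earlier results of these data known. Genes named are Svil, the 9 members, the 5 nearest in pattern to Fos and to Atf3 (mean of 50 or more, no predicted genes) and, per pathway list, those called or else up to 4 with the smallest unadjusted p in Svil-Mut against WT. Of these, 1 gene is not reported here. Marker lists numbered 11, with 92 genes. Alternatives were other pseudocounts, filters, normalizations, variance models, sample sets and thresholds, a replicate block, edgeR and DESeq2 on recovered reads, and each library left out. Leaving out 2 libraries together was chosen after seeing the data. Exon lengths, overlaps and gene coordinates came from GENCODE M21 on GRCm38, matched by symbol. Software was limma 3.58.1, DESeq2 1.42.0 and edgeR 4.0.16 in R 4.3.3, and pandas 2.3.3 and matplotlib 3.10.9 in Python 3.11.15.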

Additional observations from a re-analysis of the deposited data

Results flagged for a closer look

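The difference between the 2 Svil genotypes, tested in the fit across all genes, was past the threshold for 3 of the genes described. On the log2 scale, Svil-Mut minus Svil-KO was 3.48 for Fos, 3.19 for Atf3 and 2.28 for Klf4. Fos and Atf3 were chosen with these values known, and Klf4 for its likeness to Atf3, so these are descriptions. No group held the 4 libraries that a check for a single outlying library needs.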

How the results depend on the processing

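Limits come from 3 libraries per genotype, of which Svil-Mut replicate 2 and Svil-KO replicate 1 stood apart in several members. Over 24 alternatives, 539 of 549 log2 differences of members moved by less than their spread, the SD between libraries within the 2 genotypes compared. The other 10 were those of Fosb under other pseudocounts, edgeR, DESeq2 or the replicate block, and of Atf3 (1.74) and Maff (1.58) under the block. Many of the 549 could not move, because variance settings, filters and libraries of the third genotype do not enter a difference. The tally is thus no measure of stability. Junb between Svil-KO and WT went from 0.37 to -0.30 without Svil-KO replicate 1 and did not count as moved. No called value changed sign. Of 432 counts of list members called, 16 moved, and of 84 shares among Fos and Jun transcripts, 7 moved, each when not divided by length. For Svil-Mut against WT, limma called 6 genes and 2 members (Fos and Atf3). Genes called were 19 with a pseudocount of 10, 16 with a mean of at least 50, 16 with robust estimation, 14 with only the 2 genotypes compared, 172 with DESeq2, 20 at an adjusted p under 0.10 and 18 with both libraries above left out. Members called were 4 with a pseudocount of 10, 1 without a variance trend, 6 with DESeq2 and 4 at an adjusted p under 0.10. Leaving out 1 library gave 4 to 18 genes and 1 to 3 members, with Atf3 lost without Svil-Mut replicate 2, WT replicate 3 or WT replicate 4, and Fos called each time. For Svil-KO against WT, limma called 0 genes (628 at an unadjusted p under 0.05), edgeR 0 and DESeq2 4, with 0 members in all. For Svil-Mut against Svil-KO, limma called 7 genes and 2 members; DESeq2 called 212 genes and 7 members, an adjusted p under 0.10 gave 19 genes, both libraries left out gave 13, and leaving out 1 library gave 4 to 13 genes. The cause of these shifts was not tested.

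With the replicate number as a block, Svil-Mut against WT had 7 genes called and 1 member, Fos, and Svil-Mut against Svil-KO had 6 genes. Number 2 occurs only in Svil-Mut, so the block takes up that library, as leaving it out does. Whether the numbers pair the mice is not known. Deviations from the group means of libraries with the same number correlated at -0.056 to 0.044 over 15279 genes. With so few libraries per genotype, this cannot decide whether mice of the same number shared a litter or handling.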
